A study of Mus musculus with 4 samples.

Results

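The genes described here encode the proteins of the cytosolic ribosome. They were chosen by name from the gene table of the array: symbols that start with Rpl or Rps and a digit, together with Rplp0, Rplp1, Rplp2 and Rpsa, without the S6 kinases and the pseudogene symbols. The choice gave 63 of the 10225 genes on the array, 40 of the large subunit and 23 of the small subunit. Only cDNA spots assigned to 1 gene were used, which gave 119 spots. Rplp0, a protein of the large subunit stalk, had no such spot and is not among the 63 genes. Rack1, which also encodes a ribosome protein, had no such spot either.

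The samples were spinal cords of adult female SJL/J mice with AT-EAE and of control SJL/J mice of the same sex. AT-EAE stands for experimental autoimmune encephalomyelitis induced by adoptive transfer, in which recipients are given T cells reactive to myelin. It serves as a model of multiple sclerosis. The stage of disease, the age of the mice beyond adult, and what the controls received were not given in the sources used here. Each RNA extract was a pool of the cords of 2 mice, and there were 4 extracts a group. The 2 channels of an array held different extracts from a single group: AT-EAE array 1 carried AT-EAE extracts 1 and 2, AT-EAE array 2 carried AT-EAE extracts 3 and 4, and the control arrays 1 and 2 were laid out likewise.

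The deposited value of a spot is a ratio of the 2 channels, so it sets 1 extract against another extract of the same group. It says nothing of whether a gene had more mRNA in AT-EAE than in control cord, and no value below does so. The ratios were taken as log2, and which extract is on top is unknown, so a positive ratio on one array and a negative ratio on another do not say that the levels went opposite ways. All values below are log2 ratios relative to the median of all genes on the same array. A ratio of 0.3 then says that a gene differed between the 2 extracts of an array by that much more, in the direction the array uses, than the gene in the middle. In whole cord, a different share of cells of a type and a different amount of RNA per cell cannot be told apart.

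A ribosome has a small subunit, which binds the mRNA and reads its codons, and a large subunit, which joins amino acids and passes the chain out through a tunnel. Each ribosome holds 1 copy of nearly every ribosomal protein, and cells make the proteins of both subunits together. Most ribosomal protein mRNAs begin with a run of pyrimidines, the 5′ terminal oligopyrimidine tract, through which the kinase mTOR and the protein Larp1 set their translation together. In spinal cord these mRNAs are made by neurons, glia and any blood cells that enter, and dividing or activated immune cells make many of them.

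Promoter sequence from RefSeq (GRCm38.p6) was matched by symbol for 49 of the 63 genes. A run of at least 7 C or T lay within 15 bases of the annotated start, on the strand of the gene, in 32 of these 49 genes (65.3%), against 28.7% of 27025 genes. The letters CTTCCG, searched on both strands in the whole promoter, were in 65.3% of the 49 genes and in 18.8% of all genes. CTTTCC was in 55.1% and in 29.3%. This search also covered both strands. TATAAA was in 6.12% of the 49 genes and in 15.7% of all genes. The windows below run from 40 bases before the start to 20 bases after it, 5′ to 3′ on the strand of the gene, and the run of C and T is in capitals. The first 4 are genes of the small subunit that were high on control array 2 or, for Rps6, low on AT-EAE array 2. Rplp2 and Rpl15 are large subunit genes with and without opposite signs in the 2 groups. Rpl22 and Rps3 show starts with no such run within 15 bases. The Rpl22 window does hold a run of C and T near its 5′ end, outside these 15 bases.
Rps10, chr17:27635225-27635284, minus strand: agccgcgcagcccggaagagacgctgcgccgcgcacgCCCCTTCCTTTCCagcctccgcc
Rps9, chr7:3704001-3704060, plus strand: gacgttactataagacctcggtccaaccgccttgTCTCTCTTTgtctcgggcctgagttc
Rps12, chr10:23787190-23787249, minus strand: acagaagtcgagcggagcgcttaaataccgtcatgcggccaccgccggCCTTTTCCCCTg
Rps6, chr4:86857348-86857407, minus strand: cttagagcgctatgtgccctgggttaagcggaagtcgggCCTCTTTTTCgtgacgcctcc
Rplp2, chr7:141447611-141447670, plus strand: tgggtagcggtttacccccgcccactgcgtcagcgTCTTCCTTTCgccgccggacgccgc
Rpl15, chr14:18270967-18271026, minus strand: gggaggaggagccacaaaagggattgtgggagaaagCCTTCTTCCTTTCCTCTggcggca
Rpl22, chr4:152325686-152325745, plus strand: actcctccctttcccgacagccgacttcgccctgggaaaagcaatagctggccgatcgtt
Rps3, chr7:99483690-99483749, minus strand: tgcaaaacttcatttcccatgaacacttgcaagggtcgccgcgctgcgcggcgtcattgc
A match is a description of these letters in this window, and a window with no marked run says nothing about the mRNA start that the cord uses.

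Ribosomal protein genes had a value on nearly every array. A value was present for 62 (98.4%) and 59 (93.7%) of the 63 genes on AT-EAE arrays 1 and 2, against 63 (100%) on control arrays 1 and 2 alike. Over all genes of the array the shares were 72.4% and 54.9% on the AT-EAE arrays, against 86.2% and 80.1% on the control arrays. AT-EAE array 2, with the fewest values of all arrays, was thus also the array on which most members were missing. On the AT-EAE arrays, 40 and 39 of the 40 large subunit genes had a value, and 22 and 20 of the 23 small subunit genes did. In all, 59 of the 63 genes (93.7%) had a value on all 4 arrays, against 53.1% of all genes.

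The 4 genes with a missing value each had a single spot. Rps25, a protein of the small subunit head, was at 0.07 on AT-EAE array 1 and at 0.18 and 0.14 on the control arrays. Rps27l, a paralog of Rps27 induced by p53, was at -0.60 on AT-EAE array 1, against -0.10 and 0.43 on the control arrays. Rpl39l, a paralog of Rpl39 best known from testis, was at 0.29, against 0.02 and 0.35. All 3 had no value on AT-EAE array 2. Rps4l, a copy of Rps4x, had no value on either AT-EAE array, and its control values of 0.59 and -0.42 lay far apart. These 4 genes are not part of the fits over genes with values on all 4 arrays.

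**Figure D1:**
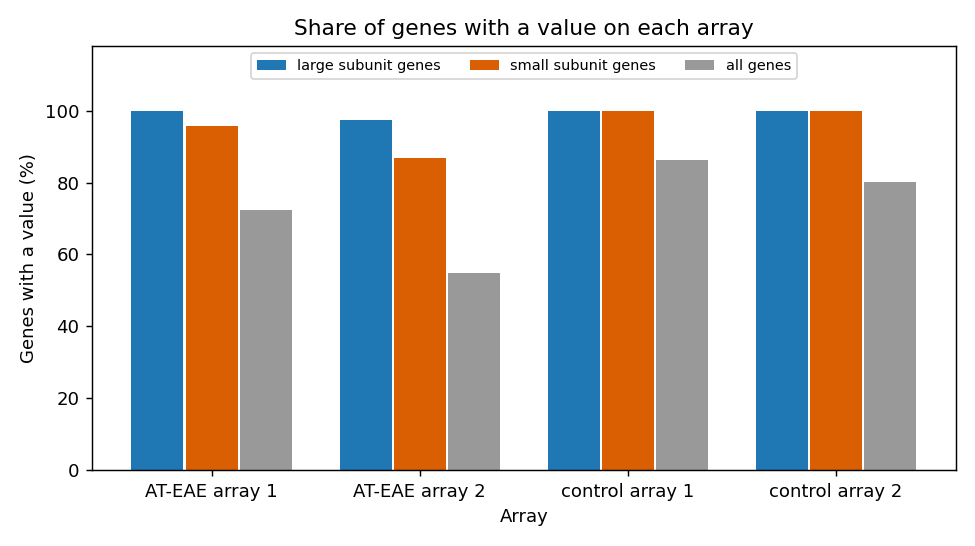
Share of genes with a value on each array, for large subunit genes, small subunit genes and all genes (percent, vertical axis from 0, AT-EAE arrays left of control arrays). The members are at or near 100% on the control arrays, and the small subunit is at its lowest, 20 of 23 genes, on AT-EAE array 2, where all genes are at 54.9%.

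On control array 2 the ribosomal protein genes stood above the rest of the array, and on the other 3 arrays their medians lay closer to the middle. On AT-EAE array 2, 32 of 39 large subunit genes lay below the array median, against 11 of 20 small subunit genes. By construction, 50% of all genes lie below it. The large subunit median was -0.03 and -0.14 on the AT-EAE arrays, against 0.01 and 0.25 on the control arrays, given throughout with array 1 before array 2. The small subunit median was -0.03 and -0.02 on the AT-EAE arrays, against 0.06 and 0.36 on the control arrays. Averaged over the 2 arrays of a group, the large subunit was at -0.08 ± 0.08 in AT-EAE and 0.13 ± 0.17 in control, and the small subunit at -0.02 ± 0.01 and 0.21 ± 0.21 (SD, n = 2 arrays each). Control array 2 was high and control array 1 near 0, so the control SD is about as large as the control mean. These means hold only if the arrays run the same way. With the sign of control array 2 turned, the control mean was -0.12 ± 0.18 for the large and -0.15 ± 0.30 for the small subunit, and with that of AT-EAE array 2 turned, the AT-EAE mean was 0.06 ± 0.12 for the large and -0.01 ± 0.04 for the small (SD, n = 2 arrays each). Without control array 2, the median member difference in the fit of AT-EAE minus control ratios was -0.07, against -0.23 with it.

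Of the members, 27 of 62 and 16 of 59 lay above the array median on the AT-EAE arrays, against 39 of 63 on control array 1 and 58 of 63 on control array 2, where 50% of all genes lie above on each array by construction. The member count on AT-EAE array 2 is the low extreme and that on control array 2 the high one. Members 0.5 or more above the median numbered 0 and 1 on the AT-EAE arrays, against 1 and 7 on the control arrays, with 0.581% and 7.75% of all genes on the AT-EAE arrays and 0.771% and 1.28% on the control arrays. Members 0.5 or more below numbered 1 and 1 on the AT-EAE arrays and 0 on both control arrays, with 2.91%, 7%, 2.02% and 4.51% of all genes on AT-EAE arrays 1 and 2 and control arrays 1 and 2. No member reached a difference of 1 on any array, against 0.378%, 1.03%, 0.125% and 0.403% of all genes in the same order.

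The place of the members among all genes shows how far control array 2 was from the others. Their median lay above 42.6% and 38.9% of genes on the AT-EAE arrays, against 57.5% and 90.9% of genes on the control arrays. In units of the robust SD over all genes, it was -0.18 and -0.26 on the AT-EAE arrays, against 0.17 and 1.29 on the control arrays. The robust SD over all genes was itself 0.174 and 0.333 on the AT-EAE arrays, against 0.176 and 0.228 on the control arrays. Among the members it was 0.136 and 0.191, against 0.143 and 0.221, so the members were spread less than all genes on each of the 4 arrays.

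**Figure D2:**
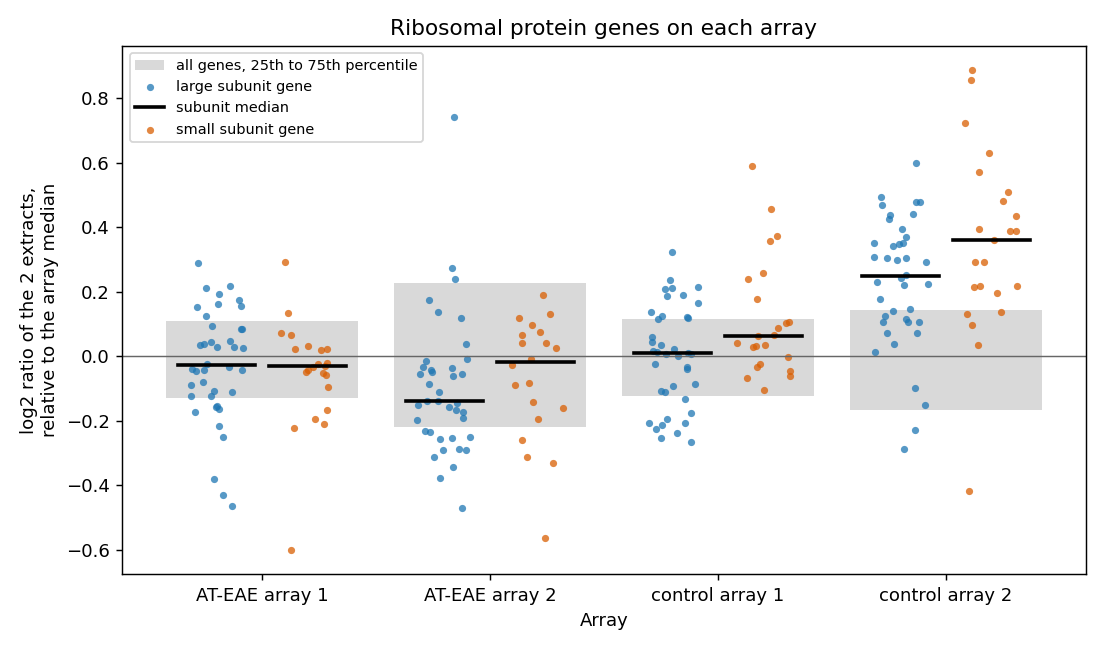
log2 ratio of each ribosomal protein gene relative to the array median (vertical axis) on the 4 arrays, 1 point a gene, large and small subunit apart, AT-EAE arrays left of control arrays, with the subunit median marked. The points of AT-EAE array 1 and control array 1 scatter around 0. On AT-EAE array 2 most large subunit points (32 of 39) lie below 0, and the small subunit points lie on both sides. On control array 2 the medians are 0.25 for the large and 0.36 for the small subunit.

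The large subunit was compared with the small subunit within each array. The large minus small difference of medians was 0.0030 and -0.12 on the AT-EAE arrays, against -0.05 and -0.11 on the control arrays. Each of these differences changes sign if the channels of its array are exchanged, so they were not averaged over arrays and only their sizes can be compared. The smallest was on AT-EAE array 1 and the largest on AT-EAE array 2. Between the list means in place of the medians it was 0.03 and -0.03 on the AT-EAE arrays, against -0.12 and -0.12 on the control arrays. The sign says only which subunit's genes sat higher on that array as deposited. The value on AT-EAE array 1 also changed sign with the choice of genes, to -0.011 with the paralogs left out, and on control array 2 it was 0.017 over genes with at least 2 spots. The robust SD between genes of a subunit ran from 0.086 to 0.220, as a description of the genes and not of the error of a median.

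Within the small subunit, the head list had a higher median on control array 2 than the body and platform list. The 9 measured head genes (Rps3, Rps10, Rps12, Rps15, Rps18, Rps19, Rps20, Rps25 and Rps29) had a median of 0.02 and 0.03 on the AT-EAE arrays, against 0.03 and 0.48 on the control arrays, and 9 of 9 lay above the median on control array 2. The 12 body and platform genes had -0.05 and -0.05, against 0.08 and 0.26, with 12 of 12 above on control array 2. These role groups were put together after the values had been seen. Of the head genes, Rps3, Rps12, Rps19, Rps20, Rps25 and Rps29 had 1 spot each. Over small subunit genes with at least 2 spots, the median on control array 2 was 0.26, against 0.36 over all small subunit genes. Rps3, which lines the channel where mRNA enters, was at 0.02 and -0.09 on the AT-EAE arrays, against 0.26 and 0.85 on the control arrays. Rps10, also of the head, was at -0.19 and 0.10, against -0.05 and 0.89. Its value on control array 2 is the highest of any member on any array, and its spots there disagreed, as described further on.

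The other head genes ranged widely on control array 2, from 0.13 for Rps15 and 0.14 for Rps25 to 0.72 for Rps29. Rps29, a small zinc-binding protein, was at 0.29 and 0.04 on the AT-EAE arrays, against 0.04 and 0.72 on the control arrays. Rps20 was at 0.13 and 0.04, against -0.06 and 0.63. Rps12 was at -0.02 and 0.03, against 0.36 and 0.48. Its control values as deposited lay above both AT-EAE values, as in 30 of 59 members and 15.2% of all genes. Rps19, whose human form is mutated in Diamond-Blackfan anaemia, was at 0.02 and -0.16, against -0.07 and 0.36. Rps18 was at 0.03 and 0.12, against -0.0033 and 0.29, and Rps15 at -0.06 and -0.31, against 0.03 and 0.13.

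Among the body and platform genes, the SD over arrays was highest in Rps24 and Rps9. Rps24, whose human form is mutated in Diamond-Blackfan anaemia too, was at -0.05 and -0.26 on the AT-EAE arrays, against 0.46 and 0.51 on the control arrays. Rps9, whose yeast form affects the accuracy of decoding, was at 0.02 and -0.14, against 0.24 and 0.57. In both genes the AT-EAE and control values as deposited did not overlap. Both AT-EAE values were the lower ones, as in 30 of 59 members and 15.2% of all genes. Rps6, the protein that S6 kinase phosphorylates, was at -0.05 and -0.56 on the AT-EAE arrays, against -0.02 and 0.04 on the control arrays. Rps14, a platform protein, was at -0.22 and -0.33, against 0.03 and 0.10, Rps26, at the mRNA exit, at -0.21 and 0.13, against -0.03 and 0.39, and Rps13 at -0.03 and 0.19, against 0.07 and 0.39. Rps4x and Rps3a1 were at -0.09 and -0.01, and at -0.17 and -0.08, in AT-EAE, against 0.37 and 0.20, and 0.11 and 0.29, in control. Rpsa, also known as the laminin receptor, was at 0.07 and 0.07, against 0.10 and 0.22, all above the array median.

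In the large subunit, the 2 measured proteins of the acidic stalk, which call elongation factors to the ribosome, had their highest values on control array 2. Rplp1 was at -0.11 and -0.14 on the AT-EAE arrays, against 0.01 and 0.49 on the control arrays. Rplp2 was at -0.04 and -0.34, against 0.01 and 0.24. Both stood below the median on both AT-EAE arrays and above it on both control arrays. As deposited, 19 of 59 members and 4.31% of all genes did so. Of the 5S particle, whose proteins also restrain Mdm2, Rpl5 was at -0.17 and -0.11, against -0.25 and 0.12, and Rpl11 at 0.16 and -0.17, against -0.21 and 0.44. Around the exit tunnel, 6 genes had medians of -0.06 and -0.18, against 0.05 and 0.18, and among them Rpl4, whose loop lines that tunnel, was at -0.04 and 0.24, against 0.21 and -0.10.

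Other large subunit genes reached the ends of the range on 1 or 2 arrays. Rpl36 was at 0.09 and -0.47 on the AT-EAE arrays, against 0.12 and 0.60 on the control arrays. Rpl32 was at 0.05 and -0.29, against 0.32 and 0.48, and Rpl30 at 0.03 and -0.06, against 0.21 and 0.48. Rpl27 was at 0.13 and 0.74, against -0.03 and 0.18, and is the only member over 0.5 on an AT-EAE array. Only 1 of its 2 clones had a value on AT-EAE array 2, and on control array 2 that clone read 0.44 and the other -0.09. The lowest large subunit genes on AT-EAE array 1 were Rpl7, at -0.46 and -0.04 in AT-EAE, against 0.04 and 0.11 in control, and Rpl6, at -0.43 and -0.20, against -0.26 and 0.01. Rpl6 had the lowest mean over the 4 arrays, as deposited, of the members with values on all, -0.22.

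Rpl27a was at -0.38 and -0.01 on the AT-EAE arrays, against 0.00 and 0.13 on the control arrays, and Rpl7a at -0.25 and -0.26, against -0.13 and 0.15. Rpl23 was at -0.16 and -0.38, against 0.17 and 0.30, and Rpl38, known in mouse for the translation of Hox mRNAs, at -0.04 and -0.31, against 0.02 and 0.29. In these 4 genes both AT-EAE values lay below both control values as deposited, as in 30 of 59 members and 15.2% of all genes. Rpl21 was at -0.22 and -0.23, against 0.13 and 0.14, and Rpl35, beside the exit tunnel, at -0.16 and -0.19, against 0.06 and 0.37. Rpl13a, which in human monocytes also leaves the ribosome to silence mRNAs, was at 0.09 and -0.05, against 0.23 and 0.30. Rpl17 was at 0.03 and 0.12, against -0.22 and 0.07, and Rpl37a at 0.19 and -0.14, against -0.04 and 0.23, so in these 2 the groups overlapped. Nearest the large subunit median were Rpl13, at 0.15 and -0.17, against -0.11 and 0.22, and Rpl24, at -0.11 and -0.15, against 0.01 and 0.35. Rpl9 was the 1 gene with both AT-EAE values above both control values, at 0.16 and 0.14, against 0.12 and -0.15. Its 2 spots on control array 2 read -0.72 and 0.42, so the low value there came from 1 spot.

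The 6 paralogs among the members, which replace a standard protein in some cells, lay on both sides of the array medians. Rpl7l1, a paralog of Rpl7, was at 0.17 and -0.03 on the AT-EAE arrays, against -0.02 and -0.29 on the control arrays. Rpl22l1, the paralog of Rpl22, was at 0.22 and -0.29, against -0.24 and 0.31, and Rpl10l, known from testis, at 0.03 and -0.25, against -0.18 and 0.35. On control array 2, 4 of the 6 lay above the median, against 58 of all 63 members.

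As deposited, few genes kept 1 side on all 4 arrays. Above the median throughout were 5 of 59 genes (Rpl14, Rpl15, Rpl29, Rps29 and Rpsa), against 11.9% of all genes, and below throughout was 1 of 59 (Rpl22), against 11.1%. Rpl15 was at 0.10 and 0.27 on the AT-EAE arrays, against 0.14 and 0.30 on the control arrays, and Rpl14 at 0.21 and 0.18, against 0.21 and 0.11. Rpl22, a protein dispensable for the ribosome whose loss in mouse stalls T cell development, was at -0.09 and -0.29, against -0.21 and -0.23. In contrast, 19 of 59 genes lay below the median on both AT-EAE arrays and above it on both control arrays, against 4.31% of all genes, and 0 of 59 did the opposite, against 3.39%. Both AT-EAE values lay below both control values for 30 of 59 members, against 15.2% of all genes, and above them for 1 (Rpl9), against 14.9%. Genes of an array share its extracts and dyes, so these counts restate the array medians given above, the high control array 2 included. They also rest on the deposited directions. Turning both AT-EAE arrays would put the same 19 of 59 members above the median on all 4 arrays, against 4.31% of all genes. That turn was not among the alternatives that follow. The count of 19 became 3 of 59 with AT-EAE array 2 turned, against 5.43% of all genes, 0 with control array 2 turned, against 4.51%, and 1 with both turned, against 7.37%. The opposite pattern then held for 1, 4 and 7 genes, against 5.14%, 6.41% and 8.92% of all genes. The 5 genes above throughout became 7, 1 and 0, against 6.19%, 5.73% and 2.97% of all genes. The 1 below throughout became 0, 8 and 2, against 6.37%, 6.82% and 3.52%.

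**Figure D3:**
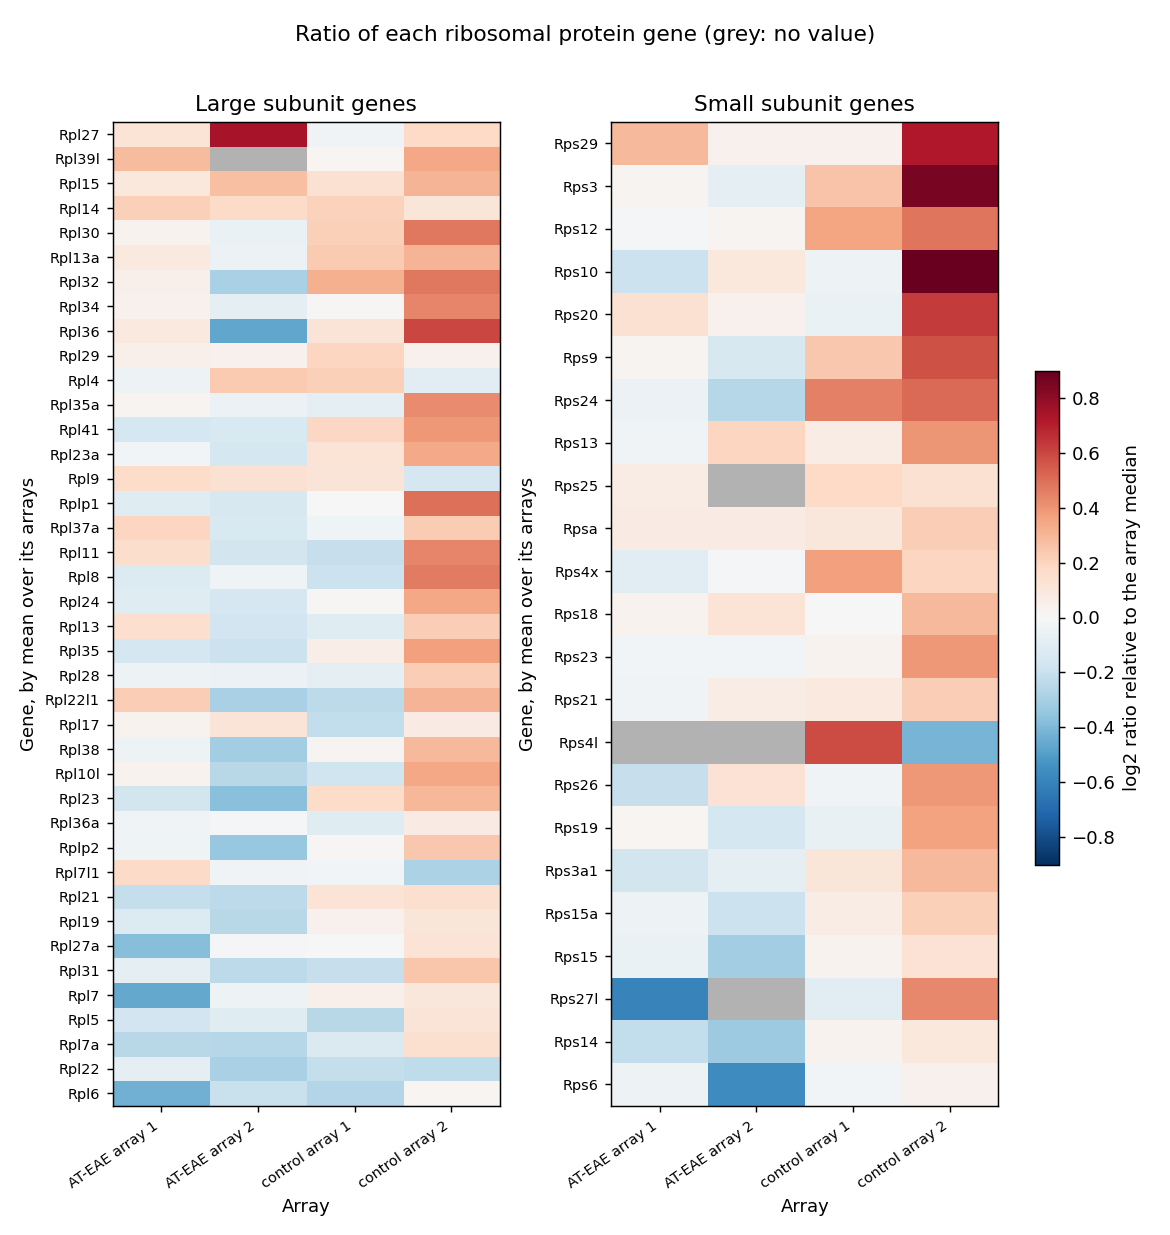
log2 ratio relative to the array median of each gene (colour, with the scale at the right, grey for no value) on the 4 arrays, AT-EAE arrays left of control arrays, genes of each subunit ordered by their mean over arrays. Control array 2 is red for nearly all genes, with Rps10 and Rps3 darkest, while Rpl7l1 and Rpl22 are blue there.

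Several spots of a gene let the error of a ratio be measured. Of the 63 genes, 25 had 1 spot, 25 had 2, 9 had 3, 3 had 4 and 1 had 5. The SD between spots of 1 gene was 0.215 and 0.239 on the AT-EAE arrays, against 0.238 and 0.319 on the control arrays. The SD between genes was 0.171 and 0.206, against 0.175 and 0.241. Differences between genes were thus no larger than the scatter between spots of a single gene on any of the 4 arrays, and most pairs of members cannot be put in order. Spots of 1 clone scattered by 0.196 and 0.215, against 0.286 and 0.343, and clones of 1 gene by 0.213 and 0.248, against 0.202 and 0.300.

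Rps10 shows this scatter at its widest. On control array 2 its 3 spots read 0.83, 0.06 and 1.77, the last 2 of a single clone, and their SD of 0.859 was the largest of any member on that array. On AT-EAE array 2 the 3 clones of Rps6 read -1.14, -0.61 and 0.06, so its low value came from 2 of 3 spots. On AT-EAE array 1 the 3 spots of the 1 clone of Rpl7 read -0.19, -1.05 and -0.15, and its low value came from 1. On control array 1 the 2 spots of the 1 clone of Rps4x read -0.11 and 0.85. Rpsa, with 5 spots, and Rpl15, with 4, were steadier: the control array 2 spots of Rpsa ran from 0.10 to 0.47 and those of Rpl15 from 0.19 to 0.44.

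**Figure D4:**
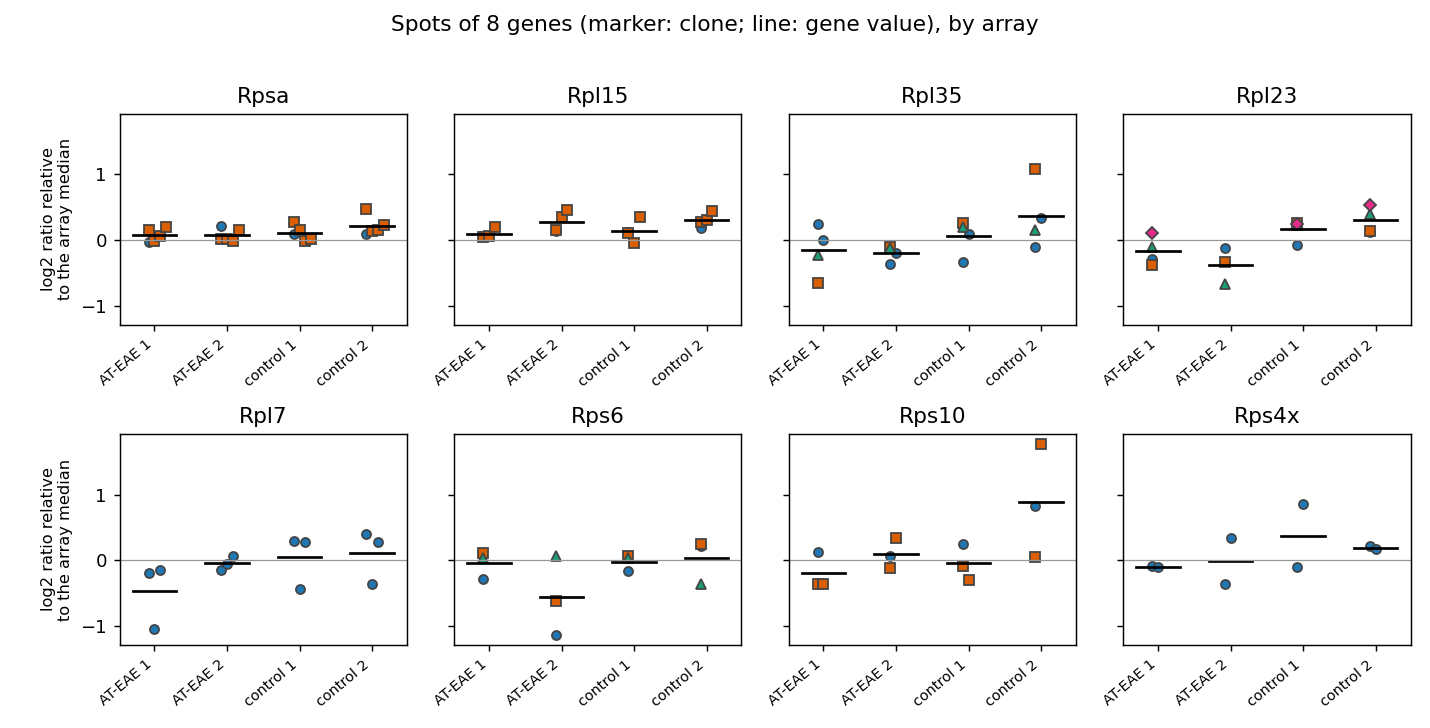
log2 ratio relative to the array median (vertical axis) of single spots of 8 genes with several spots or a wide spread, with 1 marker shape and colour a clone and a line at the gene's value, on the 4 arrays, AT-EAE arrays left of control arrays. The spots of Rps10 on control array 2 reach from 0.06 to 1.77, while those of Rpl15 and Rpsa stay close together.

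The limma fit across all 5429 genes with values on all 4 arrays called 0 of 59 members for a ratio shared by the arrays, with Benjamini-Hochberg adjustment at 0.05, against 1 gene of all (0.0184%). At an unadjusted p under 0.05 there were 3 members, against 11.7% of all genes. They were Rps3 (0.26, SE 0.11), Rps12 (0.21, SE 0.09) and Rps29 (0.27, SE 0.12), each positive, with a lowest adjusted p of 0.420 by limma. Each of these 3 genes had 1 spot. The median shared ratio was 0.02 for the large and 0.11 for the small subunit. With AT-EAE array 2, control array 2 or both turned, the fit again called 0 members. At an unadjusted p under 0.05 it had 5, 0 and 0 members, against 178, 357 and 46 of all 5429 genes. The median over members was then 0.10, -0.11 and -0.06, against 0.06 as deposited.

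The size of the difference between extracts, whatever its direction, can be set between the groups. The median absolute ratio of the members was 0.09 and 0.14 on the AT-EAE arrays, against 0.11 and 0.29 on the control arrays, or 0.12 ± 0.04 in AT-EAE and 0.20 ± 0.13 in control (SD, n = 2 arrays each). The difference of -0.08 is within the control SD, and without control array 2 it was 0.01. For all genes the medians were 0.12 and 0.22, against 0.12 and 0.15. Limma on absolute ratios, AT-EAE minus control, called 0 of 59 members, against 1 of all genes (0.0184%). At an unadjusted p under 0.05 were 2 members, Rps12 (-0.40, SE 0.11) and Rps24 (-0.33, SE 0.12), against 3.26% of all genes, and the lowest adjusted p of a member by limma was 0.986. A p that misses the threshold with 2 arrays a group does not show that the groups are alike. With 4 arrays, an exact permutation test of 1 value cannot go below 0.333.

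The same fit on signed ratios, AT-EAE minus control, was added after the data had been seen and called 0 of 59 members, against 1 of all genes (0.0184%). It had 7 members at an unadjusted p under 0.05, against 3.46% of all genes, all negative: Rps24 (-0.64, SE 0.19), Rpl23, Rps3, Rpl32, Rps9, Rpl41 and Rpl36. The lowest adjusted p of a member was 0.997 by limma. With AT-EAE array 2, control array 2 or both turned, 0 members were called. An unadjusted p under 0.05 was then reached by 0, 1 and 2 members, against 122, 273 and 207 of all 5429 genes. The median member difference was -0.16, 0.06 and 0.15, against -0.23 as deposited. Since the direction of each array is unknown, a signed difference between groups describes 4 arrays and not a change with disease.

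The arrays gave little shared order among members. Pearson's r of member values was 0.22 between the AT-EAE arrays (59 genes), 0.03 between the control arrays (63 genes) and from -0.02 to 0.13 between arrays of different groups (59 to 62 genes). For all genes it was 0.19 between the AT-EAE arrays and 0.11 between the control arrays. Between arrays of different groups it ran from 0.002 to 0.31 over all genes, highest for AT-EAE array 1 with control array 2. Genes share each array's dye and print effects, and no p is given.

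Lists related to translation show what moved with control array 2. The mitochondrial ribosome (63 genes on the array) had medians of -0.02 and -0.15 on the AT-EAE arrays, against -0.04 and 0.09 on the control arrays, and the respiratory chain (67 genes) had 0.09 and 0.02, against 0.03 and 0.31, with 57 of 64 genes above the median on control array 2. Translation factors (50 genes) had -0.04 and 0.22, against 0.03 and 0.02, and ribosome assembly genes (42) -0.01 and 0.05, against 0.03 and -0.04. On control array 2 the respiratory chain thus stood beside the ribosomal proteins, while the factors and assembly genes lay near the middle. The 11 measured genes of the TOP class outside the ribosome, which share the pyrimidine tract, were at -0.10 and 0.23, against 0.04 and -0.09. Here 4 of 11 lay above the median on control array 2, against 58 of 63 ribosomal protein genes. Fau, a ribosome protein made as a fusion with a ubiquitin-like protein and outside the naming rule, was at -0.18 and -0.25, against 0.05 and 0.23.

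Cell type markers on control array 2 were at 0.11 for astrocytes (8 genes with a value), -0.14 for oligodendrocytes (4), 0.03 for neurons (5), 0.06 for microglia and macrophages (10) and 0.23 for red blood cells (3). On AT-EAE array 2 they were at 0.28 for astrocytes (7), -0.02 for oligodendrocytes (4), -0.08 for neurons (4), 0.03 for microglia and macrophages (8) and -0.80 for red blood cells (3). On AT-EAE array 1 microglia and macrophages were at -0.32 (10), with 0 above the median, and oligodendrocytes at -0.31 (4). The 1 T cell gene had no value on any array. Over the 4 arrays the red blood cell median was -0.02 and -0.80 in AT-EAE, against 0.28 and 0.23 in control. These are the signs of the members' median. The neuron median, at -0.04 and -0.08 against 0.15 and 0.03, had the same signs. So had the muscle median (2 genes listed), at -0.21 and -0.45 against 0.21 and 0.04. Within the red blood cell list, Car1 went the other way on AT-EAE array 1 (0.10) and control array 1 (-0.25). In the neuron list, Tubb3 (0.30) and Nefl (0.01) did so on AT-EAE array 1. Nefm and Syt1 did so on control array 1 (-0.09 and -0.17) and control array 2 (-0.51 and -0.60). The AT-EAE muscle values came from Mylpf alone, and Ckm was at -0.04 and -0.17 on the control arrays. The part of these lists in the result, and that of the other cell types, was not tested. As the values are ratios, these lists give no level that would check the tissue.

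**Figure D5:**
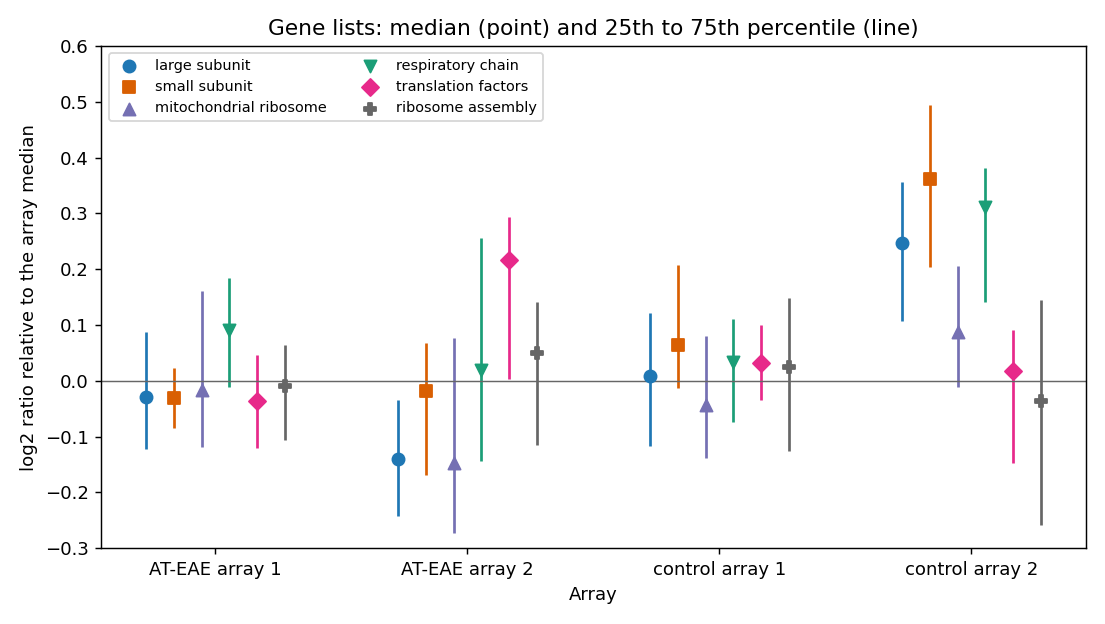
Median (point) and range from the 25th to the 75th percentile (line) of the log2 ratio relative to the array median, for 6 gene lists on the 4 arrays, AT-EAE arrays left of control arrays. On control array 2 the small subunit at 0.36, the respiratory chain at 0.31 and the large subunit at 0.25 stand above the translation factors at 0.02.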

How the data were processed

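The authors deposited, for each array, a table of log2 ratios of the 2 normalized channels per spot (base 2 was assumed). The labels describe normalized signals of the green and red channels compared on each slide. Base, direction, background correction and software were not given in the sources used here. Spots with 1 gene in the platform annotation (18511 of 28704) were averaged per gene (10225 genes, symbols updated to GRCm38.p6 for 18267 spots and kept for 244), and each array's median over genes was subtracted. A further 36 spots assigned to a ribosomal protein gene and another gene were left out. Columns of no sample numbered 0.

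Members and gene lists were chosen with earlier results of these data known. Genes with values on all 4 arrays were fitted with limma 3.58.1 in R 4.3.3 (lmFit, eBayes), with Benjamini-Hochberg adjustment over all 5429 genes. A signed AT-EAE minus control fit was added after the data were seen. The sign of AT-EAE array 2 or control array 2 or both was turned as an alternative added after the data were seen. The fits were tested on simulated ratios with 200 genes shifted. At a shift of 0.5, the shared fit recovered 153 of them, the absolute fit 0 and the signed fit 0. At a shift of 1 they recovered 200, 120 and 147, and at 2 each recovered 200. A count of 0 members called by the absolute or signed fit thus says little of differences near 0.5. Python 3.11.15, numpy 2.4.6, pandas 2.3.3 and matplotlib 3.10.9 were used. Genes were named by a fixed rule: the 4 highest and lowest of each subunit per array, the 5 highest and lowest means, Rplp0, Rplp1, Rplp2 and Rpsa, members with a missing value, those with the most or most variable spots, the 3 of each subunit nearest the median, and ribosome proteins outside the naming rule (Fau and Rack1; another is not reported here). Other genes were named from counts after their values were seen. The number of arrays, 2 a group, limits precision, and with no label saying otherwise, p-values measure the spread between these arrays only.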

Additional observations from a re-analysis of the deposited data

Results flagged for a closer look

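In 19 of the 59 genes with values on all 4 arrays, both AT-EAE arrays lay on one side of the array median and both control arrays on the other, against 4.31% of all genes with that direction and 3.39% with the opposite one, and the 2 subunit medians did so as well. AT-EAE minus control, the large subunit median was -0.21 and the small -0.24. The difference of these medians was not tested. Among large subunit genes the AT-EAE minus control difference was -0.26 for Rpl19, -0.36 for Rpl21, -0.50 for Rpl23, -0.32 for Rpl23a, -0.31 for Rpl24, -0.26 for Rpl27a, -0.39 for Rpl35, -0.34 for Rpl38, -0.44 for Rpl41, -0.33 for Rpl7, -0.38 for Rplp1 and -0.32 for Rplp2. In the small subunit it was -0.34 for Rps14, -0.26 for Rps15, -0.26 for Rps15a, -0.23 for Rps23, -0.64 for Rps24, -0.32 for Rps3a1 and -0.34 for Rps4x. These 19 genes were picked by that sign pattern, which by itself makes each difference negative. Limma called none of the 59 genes (lowest adjusted p 0.997, 7 at an unadjusted p under 0.05, against 3.46% of all genes), and the median member difference was -0.07 without control array 2, against -0.23 with it. The ratios compare extracts of 1 group, and each array's direction is unknown. With AT-EAE array 2 turned, 3 genes lay below in AT-EAE and above in control, against 5.43% of all genes. The other way lay 1 gene, against 5.14%, and the subunit medians differed by -0.07 (large) and -0.22 (small). With control array 2 turned, these counts were 0 and 4, against 4.51% and 6.41%, and the medians differed by 0.04 and 0.12. With both turned, the counts were 1 and 7, against 7.37% and 8.92%, and the medians differed by 0.17 and 0.14.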

How the results depend on the processing

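Across the alternatives, 129 values were labelled as keeping their call or staying within the spread between arrays, and 40 as moving beyond it. The 129 include the absolute ratio on arrays divided by their robust SD, -0.47 against -0.08. That value is in other units, so the spread does not apply to it. For the large median, the small median and large minus small, the spread rests on the deposited directions. With AT-EAE array 2 turned, the AT-EAE spread of the small median was 0.035, against 0.0095 as deposited. A sign changed in 5 values of large minus small, and in 1 each of the large median, the small median and the absolute ratio. Of those in large minus small, 3 were on AT-EAE array 1, near 0: -0.00034 over genes with values on all 4 arrays, -0.011 without paralogs and -0.012 with spots of several genes. The large median on control array 1 was -0.00072 as a list mean. The mean ratio of the other group, taken off each gene, gave a large subunit median of -0.15 and -0.26 on AT-EAE arrays 1 and 2, a small subunit median of -0.25 and -0.32, and large minus small of 0.096, 0.059 (reversed) and -0.056 on AT-EAE array 1, AT-EAE array 2 and control array 2. With at least 2 spots a gene, the small subunit was at -0.055 (AT-EAE array 1) and -0.046 (AT-EAE array 2), and large minus small was 0.017 on control array 2 (reversed). List means gave -0.052 and -0.069 for the small subunit in AT-EAE and, for large minus small, -0.031 on AT-EAE array 2 and -0.12 on control array 1. Spots of several genes, added after the data were seen, moved the small subunit to 0.026 on AT-EAE array 2 (reversed). Member spots with a value made 99.2% and 97.5% on the control arrays. The causes were not tested.

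Genes with a shared ratio numbered 1, and 3 at spot level, 36 with values on at least 3 arrays and 14 to 227 with 1 array left out. Genes differing in absolute ratio numbered 1, and 0 at spot level, with at least 3 arrays, with scaled arrays, with a trend and in each fit with 1 array left out (0 to 0). With AT-EAE array 2, control array 2 or both turned, genes with a shared ratio numbered 0, 1 and 0, and signed differences 0, 1 and 0. Signed differences numbered 1 as deposited, and 0 at spot level, 6 with at least 3 arrays, 4 to 78 with 1 array left out, 0 scaled and 0 with a trend. No member was called in any of these fits. Without control replicate 2, the median absolute ratio of members, AT-EAE minus control, was 0.01, and over arrays left out it ran from -0.17 to 0.01. Array numbers name different extracts and do not pair samples, with a correlation of same-numbered deviations of -0.29 over 5429 genes, and the replicate block left the counts of 1 at 1. The pooled SD between spots of a gene was 0.215 to 0.319, and single genes scattered more or less. Direction and log base stay unknown.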
